A study of Homo sapiens with 10 samples.

Results

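Accessible chromatin of SLFN11 knockout cells was followed through 2, 4 and 6 h of the checkpoint kinase inhibitor prexasertib. The 4 libraries described here, of 10 in the series, were taken by their labels: SLFN11KO_control (DMSO) and SLFN11KO_CHK1i2h, SLFN11KO_CHK1i4h and SLFN11KO_CHK1i6h (prexasertib at 100 nM). All 4 were made from CCRF-CEM, a human T lymphoblast line from a leukemia, with the SLFN11 gene knocked out. The labels do not say how the gene was removed or whether the knockout line is 1 clone. The other libraries were parental CCRF-CEM cells, wild-type for SLFN11, with DMSO or the same 3 prexasertib treatments, and either line after 4 h of the topoisomerase I inhibitor camptothecin at 100 nM. They serve here as references. Open chromatin was mapped by ATAC-seq, in which a transposase cuts and tags accessible DNA, and the deposited data are 1 list of peaks per library on build hg19. Each group is 1 library, so no difference below was tested, and the intervals given cover counting error over regions only.

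CHK1 is the kinase that the replication checkpoint sensor ATR switches on when replication forks stall. It slows the cell cycle and holds back the firing of further origins. Prexasertib blocks it, so that origins fire in excess and single-stranded DNA builds up at forks. SLFN11 is recruited to such stressed forks in cells that express it and blocks replication there, and cells without it tolerate replication stress better. Neither the SLFN11 locus nor T cell marker genes were examined, since genes were not placed on the peaks, and no sequence of a region is printed for the same reason.

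Every treated library had a larger background than the DMSO library. The genome-wide background, the mean pileup of fragments that the peak caller takes as its floor, was 1.59 with DMSO, 2.1 at 2 h, 1.85 at 4 h and 1.99 at 6 h, which is 1.32, 1.16 and 1.25 times the DMSO value. It stands in for depth, since read counts were not examined. A deeper library lets weaker and wider peaks pass a fixed threshold. The lists held 20222, 23951, 21443 and 23215 peaks in the same order on chromosomes 1 to 22 and X, over 12.4, 16.0, 13.7 and 14.9 Mb of sequence. Both series follow the order of the backgrounds, from DMSO through 4 h and 6 h to 2 h. How much of the extra peaks comes with depth was not tested beyond the scaled values below.

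Merging all 10 lists gave 35505 regions. At least 1 of these 4 libraries had a call in 29808 of them, and all 4 had one in 16220. After 2 h of prexasertib 5695 regions were gained (16.0% of the union), meaning called with the drug and not with DMSO, and 1876 were lost (5.28%). After 4 h 3913 were gained (11.0%) and 2701 lost (7.61%). After 6 h 5246 were gained (14.8%) and 2245 lost (6.32%). The number gained per region lost was thus 3.04, 1.45 and 2.34. The 3 comparisons share the DMSO library, so their values are set side by side and their overlap is not read.

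With the larger background taken into account the excess of gains became smaller at every time. The treated pileups were scaled down to the DMSO background and p was recomputed at the listed summits. Summits under a common threshold were dropped, and no peak was called anew. The 2 h library then had 4241 gains and 2327 losses. The 4 h library then had 3258 gains and 3014 losses, and the 6 h library 3928 gains and 2646 losses. The ratio of gained to lost went from 3.04 to 1.82, from 1.45 to 1.08 and from 2.34 to 1.48. At 4 h gains and losses were then nearly even, with a net of 244 regions. With lists of equal length the net is 0 by construction, and 2991, 3099 and 3068 regions still differed in each direction at 2, 4 and 6 h. That turnover between 2 lists of the same size was of like extent at the 3 times.

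**Figure D1:**
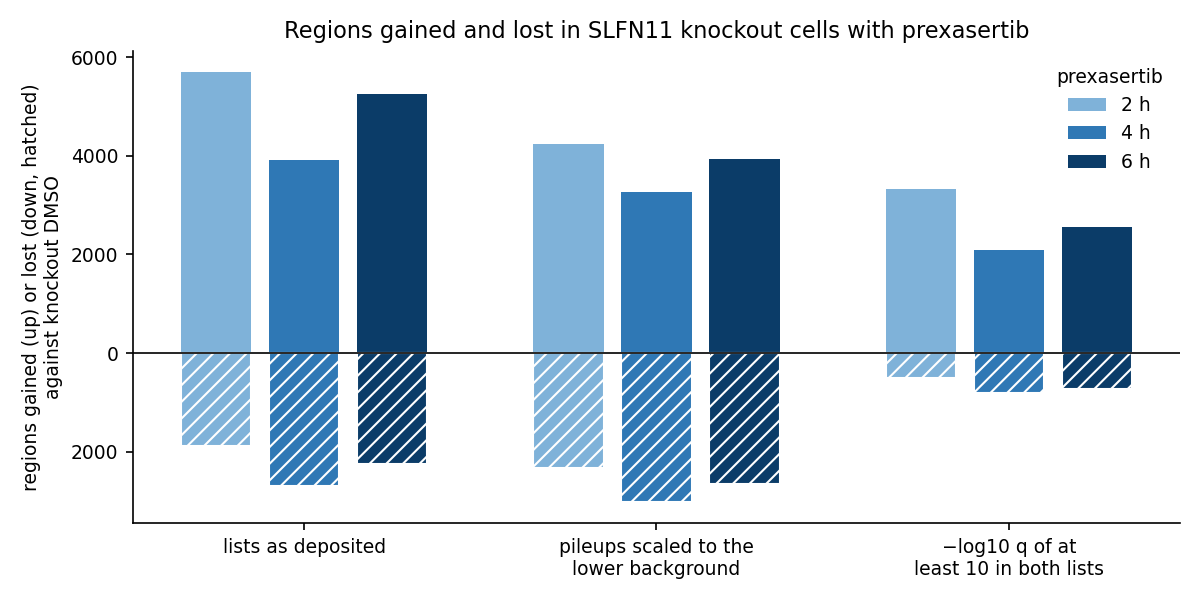
Regions gained (solid bars, up) and lost (hatched bars, down) in SLFN11 knockout cells after 2, 4 and 6 h of prexasertib against DMSO, for the lists as deposited, after scaling of the pileups, and for regions with a −log10 q of at least 10. Gains exceed losses in each pair of bars, by 3819 regions at 2 h as deposited and by 244 at 4 h after scaling.

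Gained and lost regions were mostly weak. The deposited −log10 q, the peak caller's corrected significance of a summit against its local background, had a median of 4.55 in regions gained at 2 h, 4.15 at 4 h and 4.16 at 6 h. In lost regions the medians, read from the DMSO list, were 3.74, 3.96 and 3.97. Regions shared with DMSO had medians of 18.3, 17.05 and 17.3 in the treated lists. Regions that appear or vanish between 2 lists are by their choice near the threshold, so this gap is a description of them. At a −log10 q of 10 or more were 7.48% of the gains at 2 h, 5.29% at 4 h and 5.78% at 6 h. At 20 or more the order was not the same, with 0.246%, 0.460% and 0.419%.

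Gains at or above a −log10 q of 10 numbered 426, 207 and 303 at 2, 4 and 6 h, and losses of that strength 47, 81 and 51. At 20 or more there were 14, 18 and 22 gains and 7, 4 and 2 losses. When the threshold of 10 was asked of both lists, so that a region weaker than that with DMSO counts as absent, gains were 3328, 2080 and 2562 and losses 502, 818 and 722. Most of these stricter gains were therefore regions already called with DMSO below that strength.

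**Figure D2:**
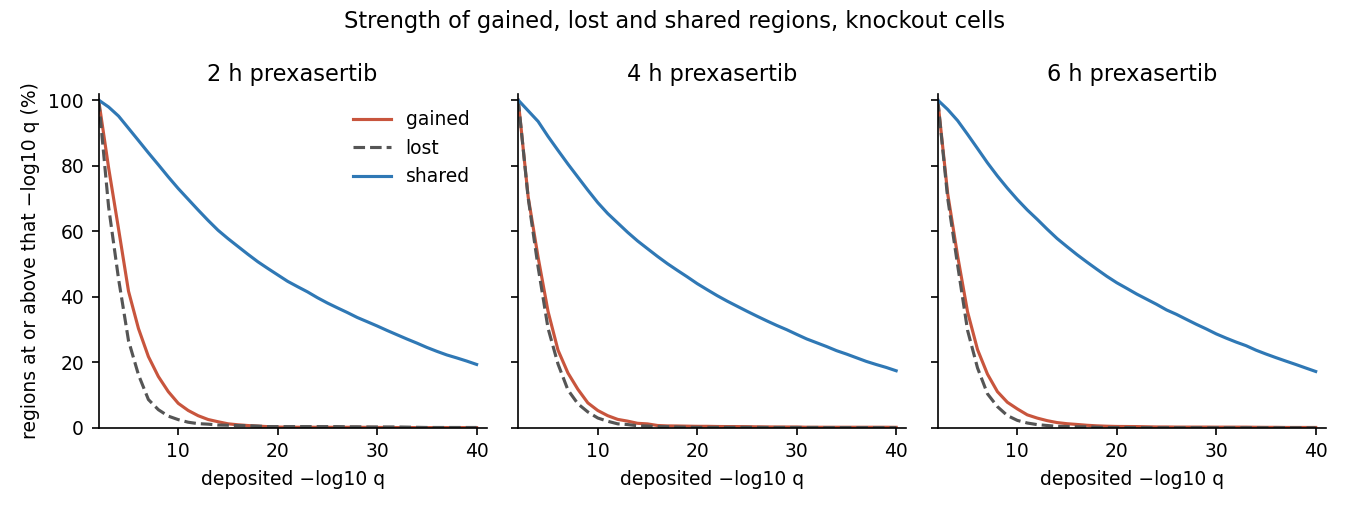
Share of gained, lost and shared regions (y axis, percent) whose deposited −log10 q is at or above the value on the x axis, at 2, 4 and 6 h of prexasertib in knockout cells, with lost regions read from the DMSO list and the others from the treated list. At a −log10 q of 10 the gained curve stands at 7.48%, 5.29% and 5.78%, and the shared curve at 68.7% or above.

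Gained regions were also narrow. Their median width was 331 bp (interval 326 to 335) after 2 h, 295 bp (290 to 300) after 4 h and 299 bp (295 to 304) after 6 h. Lost regions measured 272, 284 and 279 bp. Shared regions measured 723, 679 and 695 bp in the treated lists. Only 47, 14 and 19 gained regions were longer than 1000 bp.

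The other libraries of the series show how many of the gains were sites open elsewhere. Of the regions gained at 2, 4 and 6 h, 15.0%, 17.4% and 14.2% were called in parental cells with DMSO, against 9.43% of all regions absent from the knockout DMSO list. Called in the parental library of the same time were 14.2%, 25.8% and 39.6%, against 9.53%, 14.5% and 38.2% of the same base. At 6 h the gains and the base were close, but that base holds 2099 regions called in the parental 6 h list and nowhere else. These raise it by construction, so the closeness is not read. The other bases hold fewer such regions, 239 for parental DMSO and 301 and 366 for the parental 2 and 4 h lists. Those bases are lowered by construction, since they also hold the 2099 regions and 1219 called in the parental camptothecin list alone. Whether gains stand above them is therefore not read either. The treated list alone held 27.4%, 21.8% and 28.4% of the gains, regions seen in no other library.

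The stronger gains were mostly open in other libraries. Of gains with a −log10 q of at least 10, 39.2%, 41.5% and 34.7% were called in untreated parental cells, and 89.2%, 90.3% and 91.7% in at least 1 of the 5 parental libraries. For the latter measure the gains of any strength stood at 57.5%, 63.8% and 57.1%, and the base, all regions absent from knockout DMSO, at 64.4%. That base includes regions that entered the union only through a parental call, which raises its share by construction. Whether gains stand above or below it is therefore not read. The median gain with a −log10 q of at least 10 was called in 6 of the 10 lists at each time, and the median gained region in 3. Stronger regions are called in more libraries in general, and no share was tested. The DMSO list was the 1 list that lacked a region called in all 9 others in 82 cases, against 10, 30 and 17 cases for the 2, 4 and 6 h lists, 136 for the knockout camptothecin list, and 54 to 647 for the parental lists.

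Regions open in every library were higher by small amounts. Height is the summit pileup divided by the genome-wide background of its library. Over 11565 regions called in all 10 lists the median height was 25.1 with DMSO and 27.1, 27.0 and 26.1 at 2, 4 and 6 h. Region by region the median log2 change after 2 h was 0.13 (interval 0.12 to 0.13). It was 0.11 (0.11 to 0.12) after 4 h and 0.06 (0.06 to 0.07) after 6 h. The middle 50% of regions ran from -0.06 to 0.32 in the first comparison, from -0.09 to 0.31 in the second and from -0.14 to 0.26 in the last, so the shift was small beside the scatter between regions.

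Few of these regions differed by more than 1.5-fold. Higher by more than that were 697 (6.03%), 619 (5.35%) and 490 (4.24%) regions at 2, 4 and 6 h, and lower were 153 (1.32%), 265 (2.29%) and 302 (2.61%). The higher group became smaller and the lower group larger from 2 to 6 h. Measured over the local background, which is the deposited fold, the median log2 changes were only 0.02, 0.07 and 0.05. The fold adds a pseudocount of 1 to pileup and background, so a deeper library gives a larger fold at the same ratio. These changes are therefore not free of depth. Higher past 1.5-fold on that scale were 291 (2.52%), 303 (2.62%) and 297 (2.57%) regions, and lower were 101 (0.873%), 113 (0.977%) and 114 (0.986%). The order of the times thus depended on the background used. The local background itself, relative to the genome-wide one, was higher than with DMSO by a median log2 of 0.17, 0.08 and 0.05 at 2, 4 and 6 h.

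Height changes were sorted by the strength of a region in the parental DMSO library, which takes no part in the comparison. At 2 h the change was alike over the 5 strength classes, from 0.11 in the weakest to 0.13 in the strongest. At 4 h it was 0.04 (0.02 to 0.06) in the weakest class and 0.15 (0.14 to 0.16) in the strongest, and 54.0% and 74.5% of their regions were higher. At 6 h it was 0.03 (0.01 to 0.05) and 0.09 (0.07 to 0.10). Over the local background the strongest class did not stand clearly above the weakest at any time. There the weakest class stood at 0.08, 0.06 and 0.08 and the strongest at -0.02, 0.07 and 0.03 at 2, 4 and 6 h.

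Peaks were wider with prexasertib. At regions shared with DMSO the longest peak had a median of 723 bp against 605 bp at 2 h, 679 against 621 bp at 4 h, and 695 against 613 bp at 6 h. The median log2 width change was 0.18 (0.17 to 0.19), 0.09 (0.08 to 0.09) and 0.13 (0.12 to 0.13). Wider by more than 1.5-fold were 3450 (19.1%), 2151 (12.5%) and 2749 (15.5%) regions, and narrower were 555 (3.07%), 1094 (6.34%) and 911 (5.14%). Peaks longer than 1000 bp made up 11.7% of the DMSO list and 16.5%, 14.5% and 15.3% of the treated lists. The width changes had the order of the backgrounds, 2 h above 6 h above 4 h.

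By width in the parental DMSO library, the narrowest of 5 classes (199 to 402 bp there) was wider by a median log2 of 0.25, 0.12 and 0.16 at 2, 4 and 6 h. The widest class (853 to 3485 bp) was wider by 0.11, 0.07 and 0.09. Peaks were also wider where the raw pileup was nearly equal. At 1355 regions whose raw summit pileup at 2 h was within 0.1 log2 of that with DMSO, the median width change was 0.13 (0.11 to 0.16). At 4 h it was 0.06 (0.05 to 0.08) over 2606 such regions, and at 6 h 0.09 (0.08 to 0.11) over 2215. Relative to the background of their library these regions were lower than with DMSO. Their median log2 height changes were -0.40, -0.22 and -0.32 at 2, 4 and 6 h. An equal raw pileup therefore does not match the libraries for depth. Where the raw pileup was lower than with DMSO by more than 0.1, the width change was 0.09 after 2 h, -0.03 after 4 h and 0.005 after 6 h. More summits within a shared region were listed in 13.9%, 15.2% and 15.9% of regions at 2, 4 and 6 h, and fewer in 14.4%, 13.6% and 13.7%. These shares are over all shared regions, and summits in the wider ones alone were not counted.

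**Figure D3:**
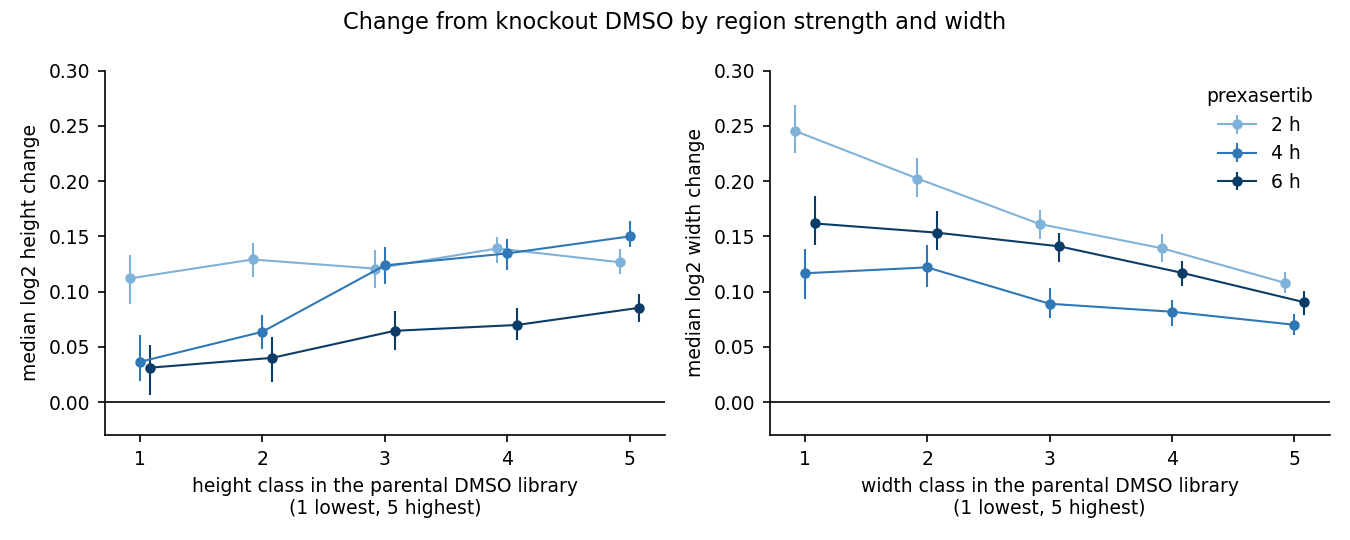
Median log2 change from knockout DMSO (y axis, with 95% order-statistic intervals) in height by height class (left) and in width by width class (right), for 2, 4 and 6 h of prexasertib over 11565 regions, with classes set by the parental DMSO library. Height changes stay at or below 0.15 in all 5 classes, and the width change of the narrowest class is 0.25 after 2 h, 0.12 after 4 h and 0.16 after 6 h.

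The treated libraries were also compared with each other, without the DMSO list. From 2 to 4 h 2414 regions appeared and 5021 were no longer called, at a median log2 height change of -0.02 (-0.02 to -0.01). From 4 to 6 h 4527 appeared and 2738 were no longer called, at -0.04 (-0.05 to -0.04). The background was 0.882 times as large in the first step and 1.08 times as large in the second, so in both steps the call numbers moved in the direction of the background. From 2 to 6 h the height change was -0.07 (-0.07 to -0.06). On that step 171 regions (1.48%) were higher and 463 (4.00%) lower past 1.5-fold. Over the local background the 2 to 4 h and 2 to 6 h changes had the other sign, at 0.04 and 0.03, and the 4 to 6 h change was -0.01.

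Gains and losses were spread over all chromosomes, at different densities. Relative to 100 regions open with DMSO, gains at 2, 4 and 6 h numbered 17.4, 15.5 and 17.3 on chromosome 19, the lowest of the 23 chromosomes at each time, and 38.9, 26.9 and 34.4 on chromosome 18, the highest at each time. Losses were also lowest on chromosome 19, at 4.70, 6.45 and 4.98. They were highest on chromosome 21 at 2 h (13.1) and on chromosome 18 at 4 and 6 h (20.7 and 18.3). Chromosome 19 is known as the most gene-dense human chromosome and chromosome 18 as a gene-poor one. In untreated parental cells chromosome 19 held 14.8 regions per Mb and chromosome 18 held 3.52. Across the 23 chromosomes, Spearman's rho between that density and the gains per 100 regions was -0.67, -0.40 and -0.31 at 2, 4 and 6 h, and for losses -0.47, -0.52 and -0.49. These are descriptions over chromosomes that share their libraries.

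Median height changes after 2 h were smallest on chromosome 11 (0.09) and largest on chromosome 6 (0.15). After 4 h they ran from 0.03 on chromosome 7 to 0.17 on chromosome 15, and after 6 h from -0.004 on chromosome 11 to 0.11 on chromosome 13. In windows of 5 Mb with at least 20 such regions, 10, 21 and 51 of 223 windows had a median below 0 at 2, 4 and 6 h. No window differed by more than 1.5-fold in either direction. The highest stood at 0.36, 0.38 and 0.28 and the lowest at -0.07, -0.15 and -0.15 on the log2 scale. Gained regions were about as isolated as shared ones. Of gained regions, 39.5%, 38.0% and 39.5% had no region of the parental DMSO list within 50 kb, against 38.1%, 37.9% and 37.8% of shared regions. For lost regions the shares were 41.7%, 41.9% and 43.4%.

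**Figure D4:**
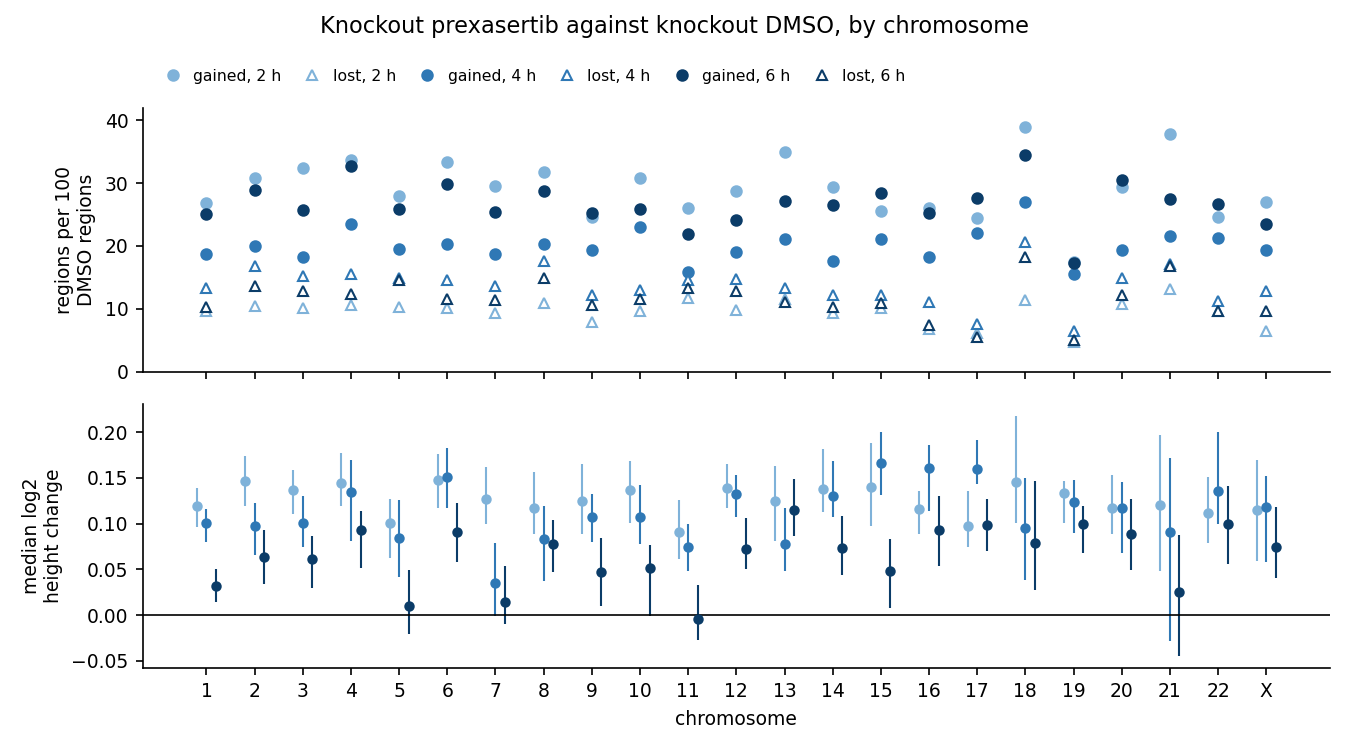
Upper panel: regions gained (filled circles) and lost (open triangles) per 100 regions open with DMSO on each chromosome, at 2, 4 and 6 h; lower panel: median log2 height change with its 95% interval. Chromosome 19 has the fewest gains and losses per 100 regions and chromosome 18 the most gains, 38.9 at 2 h.

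The strongest gains included sites next to uncovered stretches of the genome. The 5 of highest −log10 q at each time make 9 distinct regions, of which 3 lie within 1 Mb of the longest stretch of their chromosome that no list covers, which on most chromosomes spans the centromere but on chromosome X lies elsewhere. That zone holds 2.08% of the union. The region at chromosome 4, 49093972 to 49095417, led at 2 and 6 h. Its heights were 316 at 2 h, 393 at 4 h and 382 at 6 h, it measured 1423, 1437 and 1440 bp, and it was not called with DMSO. It was called in every other library of the series, with heights of 353 in untreated parental cells and 391 in knockout cells with camptothecin, so the knockout DMSO list alone lacked it. The region at chromosome 10, 39128142 to 39128963, was called at 2 and 6 h (heights 63.8 and 88.3) and neither with DMSO nor at 4 h. At chromosome 17, 22247036 to 22247245, the height was 186 at 6 h, at a fold of only 3.56 over the local background. No call was made there with DMSO or at 2 or 4 h. Such tall calls were thus present in some libraries and absent from others.

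The other leading gains lay more than 1 Mb from those stretches. On chromosome X that distance says nothing about the centromere, since the stretch lies elsewhere. At chromosome 10, 135524373 to 135524747, heights were 50.5, 63.7 and 46.6 at 2, 4 and 6 h, with no call with DMSO and 44.8 with camptothecin. At chromosome 12, 2364988 to 2365231, they were 22.4, 34.0 and 31.1, with no call with DMSO or camptothecin in knockout cells. It was called in parental cells after 4 and 6 h of prexasertib (32.4 and 31.5). At chromosome 2, 243152480 to 243152824, the heights were 31.4, 22.1 and 25.1, and no parental library had a call. A further leading gain at 4 h was at chromosome 1, 567268 to 567575, where the deposited fold was only 2.71 beside a −log10 q of 748. Also at 4 h were chromosome 2, 89869742 to 89869948 (height 202, fold 5.52), and chromosome X, 61720873 to 61721217 (height 161, fold 6.09). Those 3 were called in no other of the 4 knockout libraries. Of the 35505 regions of the union, 1389 were called at all 3 times and not with DMSO. Another 990 were called with DMSO and at none of the 3 times. Both counts rest on the single DMSO list, so neither is read as an overlap of the 3 comparisons. Of the 1389, chromosome 19, 24571427 to 24572019, again within 1 Mb of the uncovered stretch, had heights of 23.3, 23.8 and 30.6. At chromosome 18, 4510731 to 4511027, they were 14.3, 23.2 and 16.5.

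Gains of at least 500 bp lying more than 3 Mb from the longest uncovered stretch were looked up after the values were seen, the 3 strongest at each time. The region at chromosome 4, 113206449 to 113207361, had heights of 24.3, 24.9 and 20.1 at 2, 4 and 6 h and measured 901, 548 and 561 bp. It was not called with DMSO, although untreated parental cells had it at 12.2, knockout cells with camptothecin at 17.2, and parental cells after 2, 4 and 6 h of prexasertib at 16.2, 23.4 and 34.8. At chromosome 2, 65850055 to 65850947, heights were 18.6, 16.7 and 13.5, with 13.5 in untreated parental cells. At chromosome 10, 5488425 to 5489866, they were 17.1, 12.4 and 7.52, and the peak measured 1418, 282 and 203 bp, so it was tallest and widest at 2 h. At chromosome 5, 442722 to 443698, the height was greatest at 6 h, with 13.8, 12.4 and 21.1. The others were at chromosome 2, 28632894 to 28633518 (17.1, 19.4 and 16.0) and 86265305 to 86266127 (19.5, 19.4 and 26.6), and at chromosome 10, 135484700 to 135485446 (24.8, 28.1 and 33.1). Of these 7 regions, 6 were called in all lists of the series except that of knockout DMSO.

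Of the 14 distinct regions that led the losses at any time, 12 were called at another time of prexasertib, and 5 lay within 1 Mb of the uncovered stretch. Of all losses, 1876 at 2 h, 2701 at 4 h and 2245 at 6 h, only 990 regions were called at none of the 3 times. Many lost regions of any strength were thus called at another time, and 12 of 14 is not read as a trait of the strongest. At chromosome 5, 134263416 to 134263686, the height was 403 with DMSO, 375 at 4 h and 354 at 6 h, and no call was made at 2 h. The DMSO fold over the local background was 4.84 there. At chromosome 3, 197825797 to 197826022, it was 45.2, 57.8 and 52.2 with DMSO and at 4 and 6 h, and again there was none at 2 h. The strongest losses at 4 h were at chromosome 4, 49112404 to 49112863, with 212, 220 and 282 with DMSO and at 2 and 6 h, and at 49098789 to 49099385, with 163, 182 and 218. At 6 h the strongest was at chromosome 12, 38008536 to 38009098, with 64.0, 46.2 and 50.8 with DMSO and at 2 and 4 h. The region at chromosome 1, 171308440 to 171309039, was lower at each time, with 25.1, 13.3 and 17.3 with DMSO and at 2 and 4 h, and not called at 6 h. Regions lost at all 3 times were weaker. The strongest by −log10 q were at chromosome 10, 42535818 to 42536062 (height 119 at a fold of 2.21 over the local background), chromosome 3, 110957735 to 110958129 (16.9), and chromosome 6, 61898467 to 61898663 (18.2). The first and last of these lie within 1 Mb of the uncovered stretch. At chromosome 1, 21634228 to 21634659, the DMSO height was 15.1, and at chromosome 15, 80364475 to 80365153, it was 12.5.

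The named regions of changed height were chosen for the size of their smallest change over the 3 times, among 8127 regions called in all 4 libraries with a DMSO height at or above the median of 20.1. A single DMSO value enters all 3 changes, so they are descriptions. At chromosome 3, 96336130 to 96336973, the height was 39.5 with DMSO and 278, 306 and 282 at 2, 4 and 6 h. The DMSO call there was weak, with a −log10 q of 3.45 and a fold of only 1.89 over the local background. With prexasertib the folds were 15.3, 16.2 and 15.4. The DMSO value of this region stood apart from the other libraries. Its height was 387 in untreated parental cells and 311 in knockout cells with camptothecin. At chromosome 3, 141030298 to 141031198, heights were 20.1 with DMSO and 37.1, 42.7 and 34.6, a log2 change of 0.89, 1.09 and 0.79. With camptothecin the knockout cells had 32.2 there. At chromosome 12, 56727252 to 56728181, heights were 21.3 and 40.0, 35.7 and 36.6, and the peak was 495 bp with DMSO and 905, 713 and 909 bp with prexasertib. Knockout cells with camptothecin had 25.9 and 497 bp at this region, near the DMSO values. In parental cells it stood at 17.8 with DMSO and 22.3, 39.2 and 78.7 at 2, 4 and 6 h. At chromosome 3, 150125679 to 150127201, heights were 33.9 and 60.5, 56.7 and 54.2, with 36.2 after camptothecin. At chromosome 20, 33865394 to 33866193, they were 28.8 and 51.0, 46.5 and 46.1, with 44.8 after camptothecin.

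Among the regions of lower height, chromosome 4, 164816214 to 164817006, had 41.4 with DMSO and 21.4, 17.3 and 20.1 at 2, 4 and 6 h. Its peak was wider all the same, at 462 bp with DMSO and 680, 692 and 754 bp with prexasertib. In parental cells the height there was 39.8 with DMSO and 33.2, 21.9 and 18.4 at 2, 4 and 6 h, so it was lower with the drug in that line too. Knockout cells with camptothecin had 25.9. At chromosome 2, 88081408 to 88082695, heights were 20.7 and 9.05, 10.8 and 10.0, and at chromosome 14, 81712670 to 81713695, 23.8 and 13.8, 11.9 and 12.0. At both the parental DMSO height, 7.96 and 9.18, was near the treated knockout values. The other 2 were at chromosome 17, 28258221 to 28258583 (27.6 and 14.8, 14.6 and 16.0), and chromosome 7, 48128220 to 48129167 (27.6 and 16.2, 16.2 and 16.0).

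Regions of changed width were chosen in the same way, among 8121 regions with a DMSO width of at least 644 bp. At chromosome 2, 65657683 to 65660162, the peak was 1051 bp long with DMSO and 2312, 2367 and 2370 bp at 2, 4 and 6 h, at heights of 27.6 and 36.2, 35.7 and 30.6. With camptothecin it measured 1140 bp. At chromosome 1, 149811951 to 149814781, widths were 1080 and 2656, 2285 and 2362 bp, at nearly equal heights of 45.2 and 45.7, 48.6 and 52.7, and 1222 bp after camptothecin. At chromosome 8, 145596404 to 145598226, they were 652 and 1665, 1409 and 1440 bp, and 719 bp after camptothecin, although untreated parental cells had 1309 bp. At chromosome 3, 177076157 to 177078329, they were 967 and 2165, 1940 and 1900 bp, and 1246 bp after camptothecin. These 4 were thus wider with prexasertib than in either other knockout library. The camptothecin library had a background of 1.09 times the DMSO value, below the treated ones, and a difference beyond depth was not tested. In parental cells the chromosome 1 peak was also longer with both drugs. It measured 1273 bp with DMSO, 2354, 2437 and 2771 bp with prexasertib and 2691 bp with camptothecin. The chromosome 2 peak was likewise longer there, and those on chromosomes 8 and 3 were longer or shorter by time. At chromosome 8, 22875765 to 22877560, the widths were 680 and 1411, 1407 and 1718 bp, but 1573 bp after camptothecin.

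Narrower peaks appeared where a long DMSO peak was listed as a shorter one. At chromosome X, 146992934 to 146994155, the width was 1222 bp with DMSO and 454, 501 and 448 bp at 2, 4 and 6 h, with heights of 28.2 and 28.1, 28.1 and 21.1. The peak measured 295 bp after camptothecin in the knockout and 366 bp in untreated parental cells. In parental cells it was longer with the drugs, namely 1066 bp with camptothecin and, in order of time, 567, 831 and 772 bp with prexasertib. At chromosome 5, 49428998 to 49430463, the width was 1457 bp with DMSO and 635, 643 and 650 bp with prexasertib, and at chromosome 1, 243670782 to 243672351, it was 1570 bp and 551, 704 and 484 bp. Untreated parental cells also had long peaks at these places, of 1383 and 1039 bp, and knockout cells with camptothecin had 627 and 951 bp. At the former the parental peak measured 643, 667 and 270 bp after 2, 4 and 6 h of prexasertib. At chromosome 6, 150216628 to 150217905, it was 1278 bp and 319, 423 and 353 bp, and at chromosome 4, 109388275 to 109389115, 816 bp and 311, 206 and 357 bp, with DMSO heights of 10.0 and 10.7.

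**Figure D5:**
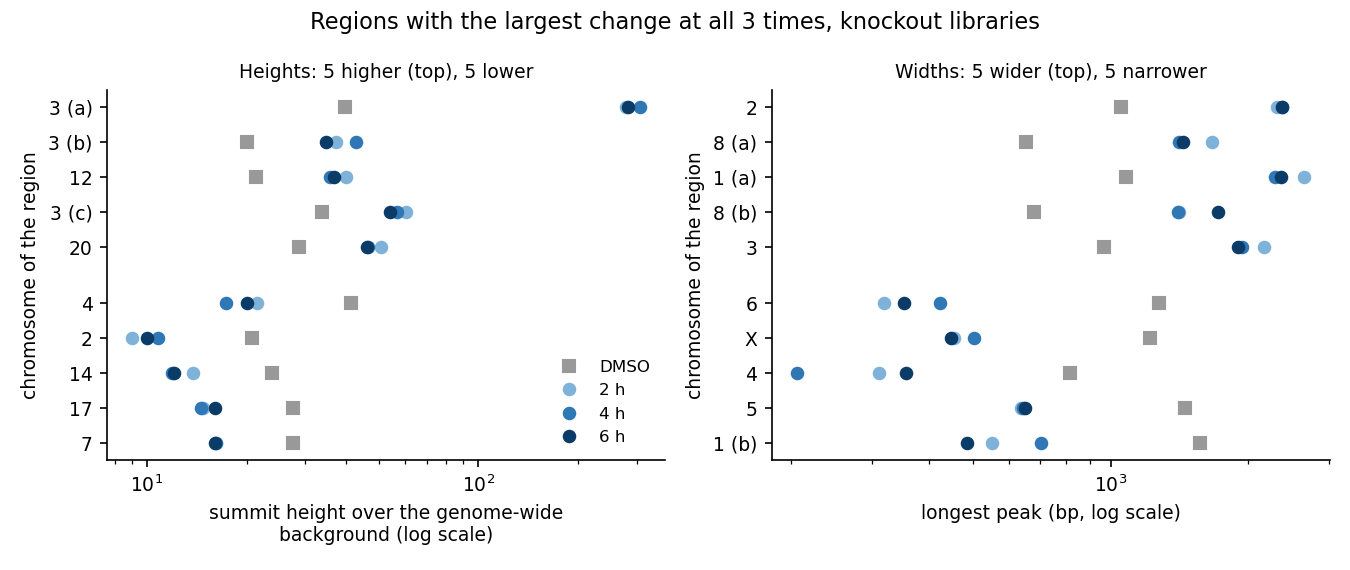
Summit height (left, log axis, multiples of the genome-wide background) and longest peak width (right, log axis, bp) in the 4 knockout libraries at the regions with the largest change at all 3 times, labelled by chromosome, with letters by rank where several share one. The DMSO square stands apart from the 3 treated circles in each row because the rows were chosen for that. The top left row goes from 39.5 to between 278 and 306, with a DMSO fold of only 1.89 over the local background.

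The tallest DMSO regions with a recovered pileup were all within 1 Mb of the longest uncovered stretch of their chromosome. They lay on chromosome 10 at 42384446 to 42385731 (height 811), on chromosome 11 at 51590294 to 51591357 (635) and 51579286 to 51580859 (628), and on chromosome 2 at 92290079 to 92291636 (608) and 92306723 to 92307864 (592). Their widths differed from DMSO by at most 0.025 on the log2 scale at any time.

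Set beside the parental cells at the same times, counts of stronger gains and of higher regions did not rise steadily in the knockout. In parental cells they did, although the difference was not tested. Gains with a −log10 q of at least 10 numbered 112, 439 and 1727 in parental cells at 2, 4 and 6 h, and 426, 207 and 303 in knockout cells. They made up 4.42%, 11.0% and 20.2% of the parental gains, and 7.48%, 5.29% and 5.78% of the knockout gains. Regions higher past 1.5-fold numbered 1186, 6288 and 9070 of 11565 in parental cells and 697, 619 and 490 in knockout cells. The parental backgrounds were 0.904, 0.811 and 0.933 times that of their DMSO library, against 1.32, 1.16 and 1.25 times in the knockout. Over the local background the numbers higher past 1.5-fold were 367, 1577 and 4695 in parental and 291, 303 and 297 in knockout cells. By strength in the knockout camptothecin library, the 6 h height change of the 5 classes ran from 0.76 to 1.15 in parental cells and from 0.01 to 0.09 in knockout cells.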

How the data were processed

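The submitters' processing notes list, without roles, MACS2 2.1.2, BWA 0.7.17, Picard 2.9.2, SAMtools 1.8, Trimmomatic 0.39, Trim Galore 0.6.2 and the build hg19. Settings, any transposase shift and any duplicate removal were not given in the sources used here. Deposited narrowPeak lists give start and end, a score (10 times −log10 q), the fold of the summit over its local background (a ratio), and −log10 p and −log10 q. In the fold a pseudocount of 1 is added to both pileup and background. For the parental library at 4 h of prexasertib, truncated raw reads are on record. Its list was kept, and leaving it out of the union moved the knockout gained and lost counts by at most 5. The parental 4 h values rest on it.

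Lines with equal start and end were joined, and peaks overlapping by at least 1 bp were merged over all 10 lists. Whole pileups were solved from the deposited fold and −log10 p, and matched within 0.001 for 99.7% to 99.8% of summits. The smallest local background is the genome-wide background. Heights are given only where every summit of a region was recovered. Intervals are at 95% (order statistics for medians). The steps, in Python 3.11.15 with pandas 2.3.3 and scipy 1.17.1, were tested on simulated data. Named regions follow fixed rules: the 5 strongest gained and lost per time and over all times, the 5 of most changed height and width at all 3 times, and the 5 tallest. The regions, rules and alternatives were chosen with earlier results of these data known. Peaks off chromosomes 1 to 22 and X were not compared. Gene lists and cell type markers at promoters were not analysed here, since the gene table used is on another build. Positions are 1-based.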

Additional observations from a re-analysis of the deposited data

Results flagged for a closer look

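After 2 h of prexasertib the number of regions gained minus lost had opposite signs in the lines, at 3819 in knockout and -250 in parental cells. The difference was not tested, and the backgrounds were 1.32 and 0.904 times those of the DMSO libraries. Peaks outside chromosomes 1 to 22 and X, which no comparison used, made up 2.23%, 2.34% and 2.42% of the lines in the knockout 2, 4 and 6 h lists, above the 2.02% of the knockout DMSO list.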

How the results depend on the processing

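Gains exceeded losses at each time under every setting but equal list length, where the net is 0 by construction. With a −log10 q of at least 10 in both lists, gains were 3328, 2080 and 2562 and losses 502, 818 and 722 at 2, 4 and 6 h. With equal list length losses were 2991 at 2 h, and gains 2991 at 2 h and 3068 at 6 h. A reciprocal overlap of 50%, counted in peaks, gave losses of 4182, 4608 and 4335. The median log2 height changes at 2, 4 and 6 h were 0.021, 0.067 and 0.055 over the local background, 0.52, 0.33 and 0.38 with no division by the background, and 0.092, 0.067 and 0.024 over the regions of the 2 lists compared. The median log2 width changes were 0.16 at 2 h over regions called in all 10 lists, and 0.14 at 2 h and 0.12 at 6 h with a −log10 q of at least 10. Leaving out the division keeps the depth difference in by construction, and the pseudocount of the fold keeps a part of it. For the other values the cause was not tested. Of the recomputed values, 24 moved as given here and 54 stayed. A count stayed if within 1.5 times the main value, and a median if within the main interval. A difference between the highest and lowest class stayed if it moved by no more than the width of the wider class interval. No median or class difference changed sign, which a count cannot do. Leaving out the parental 4 h list, or the regions beside the uncovered stretches, both chosen after seeing the data, gave values among those 54. The gene lists at promoters and their other window were not run. No paired analysis was possible because each group is 1 library without a replicate number.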
